A study of Mus musculus with 6 samples.

Results

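Fibrinogen and fibrinolysis genes were followed in primary mouse hepatocytes, as 10 genes named by symbol for the clot substrate, plasminogen, its activators, and the inhibitors and modulators of plasmin. A row of the array table carried the symbol of 9 of the 10, among 15133 named genes in all. Cpb2, which encodes the carboxypeptidase TAFI, was not analysed here. The cultures were hepatocytes of male C57Bl6 mice held between collagen layers, in medium with insulin, glucagon and hydrocortisone. In 3 arrays the cells had been exposed to 10 µM cyclosporin A (CsA) for 48 hours, and in 3 arrays to 0.5% DMSO, the vehicle, for 48 hours. The labels describe 3 independent experiments, each with its own animal, and do not say whether the CsA cultures also held DMSO. Each value is a log2 expression value made with RMA, which subtracts background, gives every array the same distribution and joins a gene's probes into 1 number.

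Fibrinogen is a plasma protein assembled in the hepatocyte from the Aα, Bβ and γ chains, which Fga, Fgb and Fgg encode. Thrombin cuts it to fibrin, the mesh of a clot. Plasmin dissolves that mesh, and it is formed from plasminogen, a zymogen that the liver secretes, by the tissue-type and the urokinase-type activators. Antiplasmin, TAFI and histidine-rich glycoprotein act on plasmin or on its binding to fibrin. Fibrinogen is a classic acute-phase protein whose genes are known to respond to interleukin-6 and glucocorticoid in liver cells.

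The promoters of the 3 chain genes are shown because these genes lie next to each other and were all lower in CsA. That of Plaur is shown because it was not. The windows run from 250 bases before to 50 bases after the start given by RefSeq, on build GRCm38.p6, written 5′ to 3′ on the strand of the gene. They are chr3:83007474-83007773 on the plus strand for Fgg, chr3:83025903-83026202 on the plus strand for Fga, chr3:83049814-83050113 on the minus strand for Fgb and chr7:24462233-24462532 on the plus strand for Plaur. Capitals mark matches on either strand to the motifs listed after the sequences.
Fgg: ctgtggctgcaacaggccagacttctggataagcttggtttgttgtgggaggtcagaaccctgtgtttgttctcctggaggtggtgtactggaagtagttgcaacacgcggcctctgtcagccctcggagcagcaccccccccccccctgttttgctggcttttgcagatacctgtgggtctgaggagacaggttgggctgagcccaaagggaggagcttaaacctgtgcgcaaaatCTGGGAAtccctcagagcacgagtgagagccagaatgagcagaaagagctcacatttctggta
Fga: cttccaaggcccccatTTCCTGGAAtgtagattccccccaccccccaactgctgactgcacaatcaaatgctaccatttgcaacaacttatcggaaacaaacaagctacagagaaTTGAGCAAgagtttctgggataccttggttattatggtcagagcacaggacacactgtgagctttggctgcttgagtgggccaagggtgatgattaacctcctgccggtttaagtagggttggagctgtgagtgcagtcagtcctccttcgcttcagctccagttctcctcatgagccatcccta
Fgb: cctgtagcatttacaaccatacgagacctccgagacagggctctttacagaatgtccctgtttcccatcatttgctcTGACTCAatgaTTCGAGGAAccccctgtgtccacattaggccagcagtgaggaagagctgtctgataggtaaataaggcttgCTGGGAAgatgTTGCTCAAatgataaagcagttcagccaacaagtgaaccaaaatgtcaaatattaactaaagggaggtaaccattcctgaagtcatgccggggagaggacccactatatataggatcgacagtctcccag
Plaur: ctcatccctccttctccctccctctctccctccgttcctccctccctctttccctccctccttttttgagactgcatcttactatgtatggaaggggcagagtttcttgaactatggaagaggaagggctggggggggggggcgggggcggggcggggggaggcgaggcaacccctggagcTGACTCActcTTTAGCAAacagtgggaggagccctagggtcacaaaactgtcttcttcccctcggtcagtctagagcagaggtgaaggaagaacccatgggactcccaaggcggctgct

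The 6 motifs searched were a C/EBP site TTGCNNAA, the type II IL-6 element CTGGGAA, a STAT site TTCNNNGAA, an AP-1 site TGANTCA, the TATA box TATAAA and CCACG, the end of the endoplasmic reticulum stress element. Promoters of 6 measured members were in the table, and no 2 matches in them overlapped. A match to the type II IL-6 element began 13 bases before the start of Fgg and 91 bases before that of Fgb, against 11.1% of all 32851 promoters. The C/EBP letters were found in Fga, Fgb, Hrg and Plaur (10.8% of all promoters), and the STAT letters in Fga and Fgb (8.3%). The AP-1 letters were found in Fgb, Hrg and Plaur (7.81%). The TATA box letters were found in Hrg, at its annotated start (13.6%), and CCACG in Serpinf2 (32.8%). These matches are a description of the letters.

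**Figure D1:**
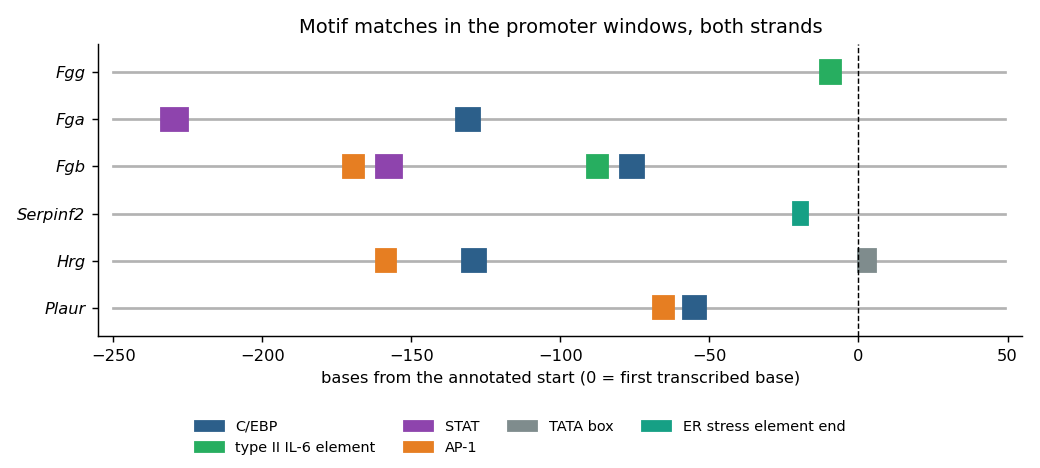
Motif matches in the 6 promoter windows, with the distance from the annotated start in bases on the horizontal axis and 1 line per gene. Coloured boxes are matches on either strand. Fgb holds the type II IL-6 element 91 bases before the start and a C/EBP match 80 bases before it, while Fgg holds only the type II IL-6 element, at 13 bases before it, among the motifs searched.

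All 3 fibrinogen chain genes, the plasminogen gene, the tissue-type activator gene and the genes of antiplasmin and histidine-rich glycoprotein were lower in CsA. In a fit with limma across all 16331 rows, 7 of the 9 genes passed an adjusted p of 0.05 as lower, where 9.05% of all rows were lower. In limma 0 of the 9 passed as higher, where 9.55% of all rows did. At an unadjusted p under 0.05 in limma 1 of the 9, Plaur (0.0146), was higher, where 17.3% of all rows were. The urokinase gene Plau and its receptor gene Plaur did not pass in either direction. The median difference over the 9 genes was -2.52 on the log2 scale, against 0.035 over all rows. For 7 genes the CsA arrays all lay below the DMSO arrays, as in 15.3% of all rows, and for 2 genes they all lay above, as in 19.8%. These are mixed RNA extracts, so fewer cells of a type and less RNA per cell cannot be told apart.

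**Figure D2:**
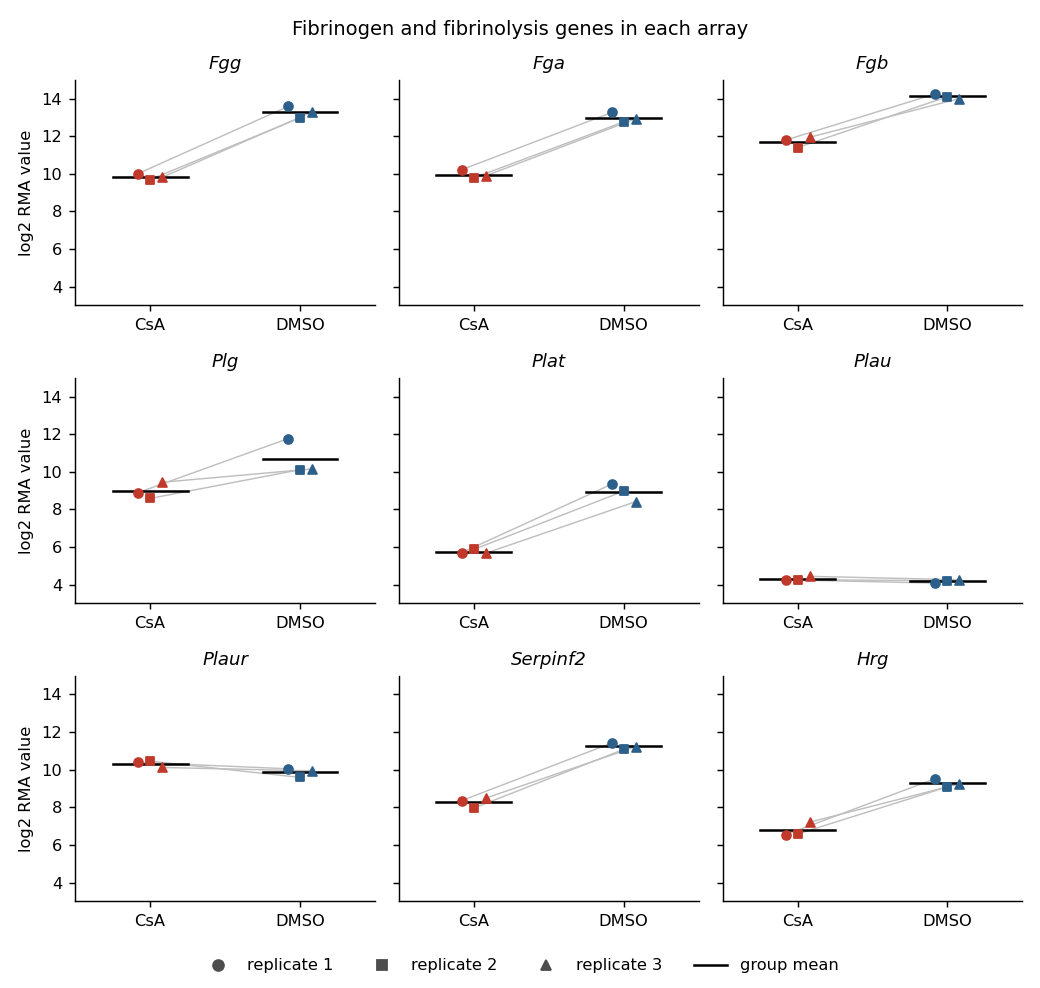
Log2 RMA values of the 9 genes in each array, with CsA left and DMSO right in every panel. Symbols mark the replicate number, grey lines join same-numbered arrays and black bars are group means. The CsA arrays lie below the DMSO arrays for Fgg, Fga, Fgb, Plg, Plat, Serpinf2 and Hrg, and at or slightly above them for Plau and Plaur.

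Fgg, which encodes the γ chain that carries sites for fibrin assembly and platelet binding, had log2 values of 10.01, 9.69 and 9.81 in CsA arrays, against 13.58, 12.97 and 13.28 in DMSO arrays. The groups lay far apart, with DMSO replicate 1 highest and CsA replicate 2 lowest. The difference was -3.44 ± 0.17 (SE, n = 3 each, limma adjusted p = 2.59e-05), which left 9.22% of the DMSO level. It was the 16th most negative difference of the 16331 rows.

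Fga, which encodes the Aα chain, from which thrombin removes fibrinopeptide A, had 10.22, 9.78 and 9.89 in CsA arrays, against 13.26, 12.76 and 12.93 in DMSO arrays. Its difference was -3.02 ± 0.16 (limma adjusted p = 2.69e-05), or 12.3% of the DMSO level. Same-numbered arrays differed by -3.05, -2.98 and -3.04, the narrowest spread of pairs among the 7 lowered genes.

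Fgb, which encodes the Bβ chain, had 11.79, 11.39 and 11.94 in CsA arrays, against 14.25, 14.10 and 14.00 in DMSO arrays. Its difference of -2.41 ± 0.15 (limma adjusted p = 4.97e-05) was the smallest of the 3 chains and left 18.8% of the DMSO level. Again the groups did not overlap, and the pairs differed by -2.46, -2.72 and -2.06.

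The chain genes were also set against each other within each array, since a change in such a log2 ratio shows unequal change in the values of its genes. The ratio itself has no meaning as a level, because probe sets differ in brightness. Fgb was the brightest chain (mean 14.12 in DMSO, and 99.2% of rows had a lower mean over all arrays). Differences can be compressed near the top of the scale, and whether this widened the shifts against Fgb was not tested. Fgg minus Fgb was -1.78, -1.69 and -2.13 in CsA arrays, against -0.67, -1.14 and -0.72 in DMSO arrays, a shift of -1.02. Fga minus Fgb shifted by -0.61, with means of -1.74 ± 0.26 in CsA and -1.13 ± 0.18 in DMSO (SD, n = 3 each). Fgg minus Fga shifted by -0.42, with means of -0.13 ± 0.07 in CsA and 0.29 ± 0.08 in DMSO (SD, n = 3 each). The groups did not overlap for any of the 3 pairs. The exact permutation test, two-sided, gave p = 0.1 for each pair and 0.1 after adjustment over the 3 pairs, the smallest p that this test can give with 3 against 3 arrays. It therefore could not pass the threshold here, and no other test of the ratios was run.

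**Figure D3:**
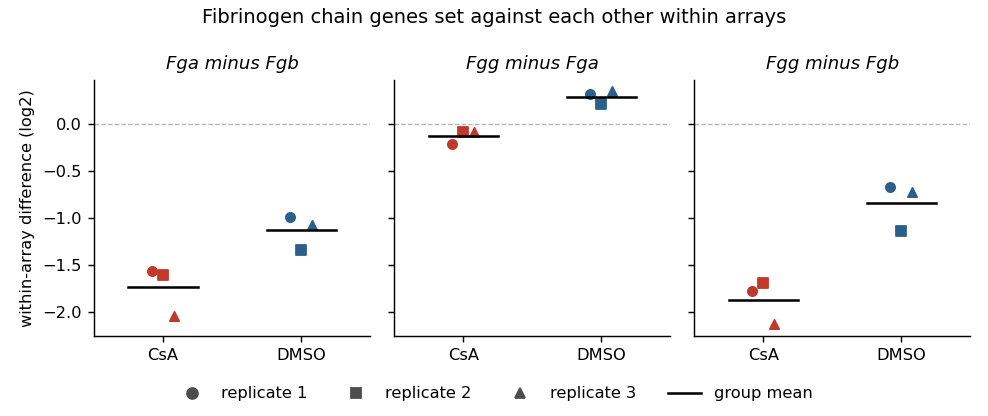
Within-array log2 differences between fibrinogen chain genes, CsA left and DMSO right, with the replicate number as symbol and group means as black bars. In each panel the CsA arrays lie below the DMSO arrays, with shifts of -0.61, -0.42 and -1.02.

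The 3 chain genes are neighbours on chromosome 3, in the order Fgg, Fga and Fgb among protein-coding genes of RefSeq. The measured genes on either side did not pass the test. Lrat, a retinol-esterifying enzyme gene beside Fgg, averaged 3.18 in CsA and 3.21 in DMSO, near the bottom of the scale (difference -0.02 ± 0.10, limma adjusted p = 0.921). Plrg1, a splicing factor gene beside Fgb, averaged 10.72 in CsA and 10.56 in DMSO (difference 0.17 ± 0.12, limma adjusted p = 0.432).

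Plg, which encodes plasminogen, had 8.89, 8.58 and 9.44 in CsA arrays, against 11.76, 10.11 and 10.15 in DMSO arrays. DMSO replicate 1 stood well above the other 2 DMSO arrays, and the group SD was 0.94 in DMSO and 0.43 in CsA. The difference was -1.71 ± 0.42 (limma adjusted p = 0.0228), or 30.6% of the DMSO level, with a 95% interval of -2.66 to -0.75. The pairs spread widely, at -2.87, -1.53 and -0.72. Without DMSO replicate 1 the difference was -1.16 (limma adjusted p = 0.014), and the call was lost without CsA replicate 1 (0.0672) or CsA replicate 2 (0.0852).

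Plat, which encodes the tissue-type plasminogen activator, had 5.70, 5.87 and 5.67 in CsA arrays, against 9.34, 8.97 and 8.41 in DMSO arrays. The CsA arrays lay close together (SD 0.11), while the DMSO arrays spread more widely (SD 0.47). The difference of -3.16 ± 0.21 (limma adjusted p = 6.01e-05) left 11.2% of the DMSO level and was the 27th most negative of all rows. Outside the liver Plat is best known as a product of endothelial cells. Of 10 endothelial markers 1, Stab2, was lower in limma, where 9.05% of all rows were. The summed unlogged level of these markers was 442 to 484 in CsA arrays and 453 to 572 in DMSO arrays. Of the 10 markers, 5 were among the dimmest 25% of rows, and these included the defining endothelial genes Pecam1 and Vwf.

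Plau, which encodes urokinase, had 4.26, 4.26 and 4.44 in CsA arrays, against 4.08, 4.21 and 4.26 in DMSO arrays. The lowest CsA array and the highest DMSO array were equal to 2 decimals. Only 15.9% of rows had a lower mean, a range where RMA compresses differences, so a change of this gene may not be measurable here. The difference was 0.14 ± 0.11 (limma adjusted p = 0.457), with a 95% interval of -0.11 to 0.39.

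Plaur, which encodes the receptor that holds urokinase at the cell surface, had 10.39, 10.46 and 10.12 in CsA arrays, against 10.05, 9.59 and 9.94 in DMSO arrays. The CsA arrays were all above the DMSO arrays, by a narrow margin. The difference was 0.46 ± 0.15 (limma adjusted p = 0.0678), with a 95% interval of 0.12 to 0.81 before any adjustment. With the replicate number as a block the adjusted p was 0.0468, so 1 of 9 genes was then higher, where 15.8% of all rows were, and 7 were lower, where 12.9% were. Plaur also passed after centring the arrays on their medians (adjusted p = 0.0419), with array weights (0.00531), without CsA replicate 3 (0.0377) and without both arrays numbered 3 (0.0386).

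Serpinf2, which encodes antiplasmin, the serpin that blocks free plasmin, had 8.36, 7.96 and 8.49 in CsA arrays, against 11.42, 11.08 and 11.22 in DMSO arrays. The difference was -2.97 ± 0.16 (limma adjusted p = 2.69e-05), or 12.8% of the DMSO level. Its pairs differed by -3.05, -3.12 and -2.73, and the groups lay far apart in each.

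Hrg, which encodes histidine-rich glycoprotein, a plasma protein that binds plasminogen, fibrinogen and heparin, had 6.54, 6.58 and 7.21 in CsA arrays, against 9.53, 9.09 and 9.25 in DMSO arrays. CsA replicate 3 was the highest of its group and still lay below every DMSO array. The difference was -2.52 ± 0.20 (limma adjusted p = 0.000112), or 17.5% of the DMSO level.

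Among the 7 lowered genes, DMSO replicate 1 was the highest DMSO array in 7 of 7. CsA replicate 2 was the lowest CsA array in 5 of 7, the exceptions being Plat and Hrg. The differences of the pairs numbered 3 were the smallest of the 3 pairs for Fgb, Plg, Plat, Serpinf2 and Hrg. All these genes were read on the same arrays, so the counts are not separate observations. Shares over all rows are not given for them.

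**Figure D4:**
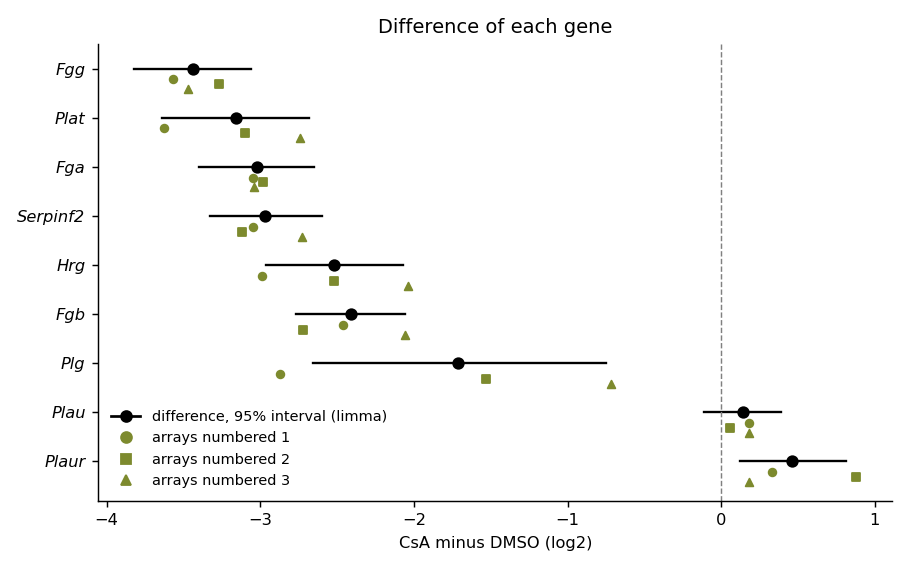
Difference between CsA and DMSO of each gene on the log2 scale, as the limma estimate with its 95% interval (black) and as the differences of same-numbered arrays (green symbols). Intervals of 7 genes lie below 0, from Fgg at -3.44 to Plg at -1.71, the interval of Plau crosses 0 and that of Plaur runs from 0.12 to 0.81.

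Genes around this system were described by 7 lists holding 74 genes, of which 68 had a named row. In limma 19 of the 68 were lower (27.9%, against 9.05% of all rows) and 5 higher (7.35%, against 9.55% of all rows). Blocking on the replicate number gave 25 lower genes, where 12.9% of all rows were lower, and 7 higher genes, where 15.8% of all rows were higher. The 5 higher genes lay in the lists of fibrin cross-linking and of secretion. The other 5 lists were set apart by having no higher gene, so their 0 of 48 genes in limma is no separate result. At an unadjusted p under 0.05 it was also 0 of 48, and 17.3% of all rows met this as higher. That count comes from lists picked by the same p values, so it does not show a lack of higher genes. The list medians lay between -0.57 and 0.41.

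Among other inhibitors of plasmin and its activators 2 of 6 measured genes were lower (median -0.09). Pzp, a broad protease inhibitor of the macroglobulin family, averaged 8.81 ± 0.41 in CsA and 11.33 ± 0.38 in DMSO (SD, n = 3 each; limma adjusted p = 0.000274). Serping1, the C1 inhibitor, which also blocks kallikrein, differed by -0.94 ± 0.10 (limma adjusted p = 0.000523). Serpinb2, the activator inhibitor PAI-2, averaged 3.68 in CsA and 3.49 in DMSO and did not pass.

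For plasminogen receptors and the clearance of activators 2 of 8 genes were lower (median -0.22). Lrp1, the receptor by which hepatocytes take up tissue-type activator and urokinase bound to inhibitor, averaged 7.99 ± 0.32 in CsA and 9.74 ± 0.60 in DMSO (SD, n = 3 each; limma adjusted p = 0.00344). Lrpap1, its chaperone, differed by -0.45 ± 0.11 (limma adjusted p = 0.0234), and its call was lost without CsA replicate 1 (0.0683), CsA replicate 2 (0.104), DMSO replicate 1 (0.0857) or DMSO replicate 2 (0.072). Anxa2, which with S100a10 forms a surface site for plasminogen, differed by -0.20 ± 0.10 and did not pass.

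For fibrin cross-linking, thrombin and carboxypeptidases 4 of 8 genes were lower and 1 higher (median -0.57). F13b, the carrier subunit of the factor that cross-links fibrin, averaged 6.26 ± 0.55 in CsA and 9.01 ± 0.41 in DMSO (SD, n = 3 each; limma adjusted p = 0.000407). F2, which encodes prothrombin, differed by -1.10 ± 0.12 and Cpn1, a plasma carboxypeptidase subunit, by -0.93 ± 0.11. Procr, the endothelial protein C receptor gene, was higher by 0.83 ± 0.20 (limma adjusted p = 0.0224), which became 0.0522 without CsA replicate 1, 0.0803 without CsA replicate 2, 0.0852 without DMSO replicate 2 and 0.0598 without DMSO replicate 3. Tgm2, tissue transglutaminase, differed by -0.68 ± 0.18 (limma adjusted p = 0.0277) and lost its call when any single array other than DMSO replicate 1 was left out.

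In kringle and other proteases linked to plasmin 4 of 13 genes were lower (median -0.21). They were F12 (-1.44 ± 0.12), Klkb1, which encodes plasma prekallikrein (-1.33 ± 0.24), Hgfac, the activator of hepatocyte growth factor (-1.09 ± 0.12), and F11 (-0.67 ± 0.18). F11 lost its call without CsA replicate 1, CsA replicate 2, CsA replicate 3 or DMSO replicate 2 (limma adjusted p from 0.0563 to 0.0761). The matrix metalloproteinase genes Mmp2, Mmp3, Mmp9, Mmp13 and Mmp14 did not pass.

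In fibrinogen-like genes and fibrinogen receptors 2 of 9 were lower (median -0.24). Angptl4, which carries a fibrinogen-like domain and inhibits lipoprotein lipase, differed by -2.75 ± 0.18 (limma adjusted p = 5.68e-05). Icam1, an adhesion receptor that can bind fibrinogen, averaged 7.34 ± 0.40 in CsA and 9.21 ± 0.17 in DMSO (SD, n = 3 each; limma adjusted p = 0.000438). Fgl1, a fibrinogen-related protein secreted by hepatocytes, differed by -1.04 ± 0.43 without passing (limma adjusted p = 0.134), and passed with the replicate block (0.00284). Its difference was -0.54 without DMSO replicate 3 and -0.74 without CsA replicate 1.

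Of the genes listed for the control of fibrinogen transcription 3 of 12 were lower (median -0.14). The list mixes factors that drive it with Socs3, an inhibitor of interleukin-6 signalling, which did not pass. Hnf4a, a nuclear receptor that sustains hepatocyte genes, averaged 8.11 ± 0.16 in CsA and 9.84 ± 0.26 in DMSO (SD, n = 3 each; limma adjusted p = 0.000196). Stat3, which carries the interleukin-6 signal to the nucleus, differed by -0.46 ± 0.10 (limma adjusted p = 0.0138). Il6ra, the interleukin-6 receptor gene, differed by -0.40 ± 0.12 (limma adjusted p = 0.0499), at the threshold. The count of 3 was 1 without CsA replicate 1, CsA replicate 2 or DMSO replicate 1 and 2 without DMSO replicate 2. The C/EBP genes did not pass, with -0.31 ± 0.17 for Cebpa, 0.20 ± 0.26 for Cebpb and 0.32 ± 0.16 for Cebpd. Without both arrays numbered 3, Cebpb (0.52, limma adjusted p = 0.015) and Cebpd (0.51, 0.0499) were higher. Leaving out CsA replicate 3 alone was enough for Cebpb (0.56, limma adjusted p = 0.0127) but not for Cebpd (0.36, 0.224). With array weights and every array kept, Cebpd was higher (0.42, limma adjusted p = 0.034) and Cebpb did not pass (0.44, 0.09).

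In the list named for the secretion of fibrinogen 4 of 12 genes were higher and 2 lower (median 0.41). Secretion itself was not measured. The higher genes were the disulfide isomerase genes Pdia6 (1.20 ± 0.18) and Pdia4 (0.88 ± 0.22), the lectin chaperone gene Calr (0.74 ± 0.14) and the chaperone gene Hspa5 (1.07 ± 0.11). Pdia4 lost its call without CsA replicate 1, CsA replicate 2, DMSO replicate 2 or DMSO replicate 3 (limma adjusted p from 0.0729 to 0.0992). The lower ones were Sec24a, a coat gene of vesicles that leave the endoplasmic reticulum (-0.89 ± 0.21), and Creb3l3 (-2.22 ± 0.12, limma adjusted p = 2.69e-05). Creb3l3 encodes a transcription factor held in the endoplasmic reticulum membrane of hepatocytes rather than a component of the secretion machinery. Sec24a kept its call without CsA replicate 1 or DMSO replicate 3 and lost it without any other single array. With the replicate block 6 genes of this list were higher and 3 lower.

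**Figure D5:**
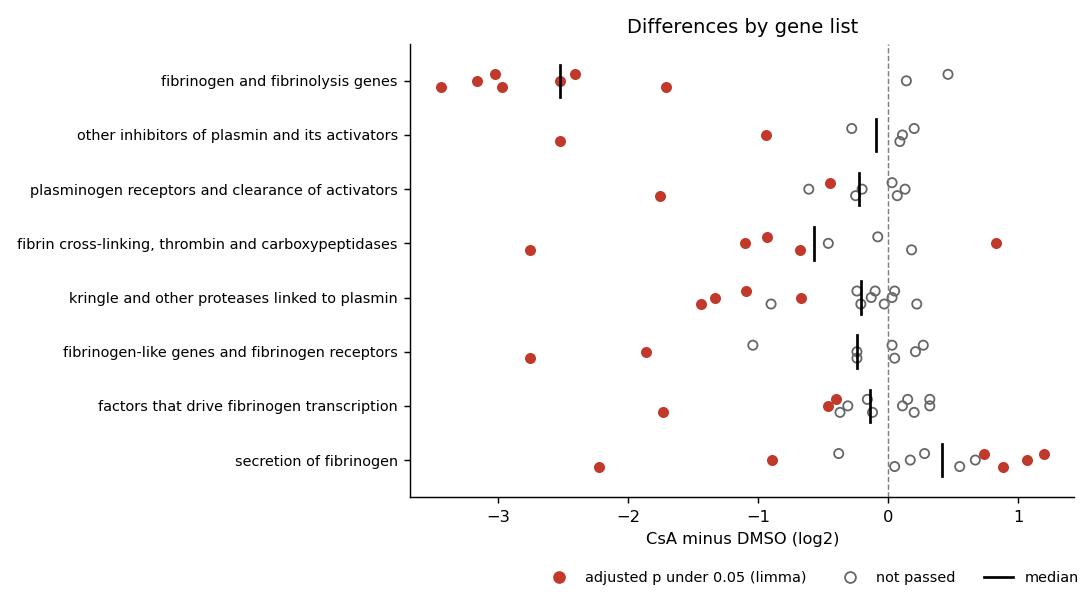
Differences between CsA and DMSO on the log2 scale for the 9 fibrinogen and fibrinolysis genes (top) and the 7 surrounding lists. Filled red points passed an adjusted p of 0.05 in limma, open points did not, and black bars are medians. The 9 genes have a median of -2.52, and the list medians lie between -0.57 and 0.41.

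The genes whose pattern over the 6 arrays was most like the mean of the 3 chain genes were ranked by Pearson correlation over 15124 other named genes. The 5 highest were Creb3l3 (r = 0.9985), Plekhg2 (0.9979), Fuca1 (0.9977), Isoc2b (0.9976) and Trmt2b (0.9974). These values describe 6 arrays in 2 groups, so any gene that is clearly lower in CsA scores high, and 646 genes had r above 0.95. Creb3l3 had 8.30, 8.14 and 8.13 in CsA arrays, against 10.57, 10.25 and 10.41 in DMSO arrays, while the other 4 differed by -0.85 to -0.47.

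Array medians lay between 6.70 and 6.78, and the 6 arrays correlated at 0.99 or more within groups and at up to 0.981 between groups. The hepatocyte label was set against its markers, of which 4 of 7 were lower. Their summed unlogged level was 66735 to 80123 in CsA arrays and 102045 to 107697 in DMSO arrays, while Alb, the albumin gene, differed by -0.10 ± 0.10 without passing. Alb had 15.17, 15.24 and 15.16 in CsA arrays, against 15.30, 15.29 and 15.28 in DMSO arrays, at the top of the scale. Differences can be compressed there, so its small difference says little about albumin RNA. Of 8 stellate cell and fibroblast markers 1, Acta2, was lower, with a summed level of 277 to 321 in CsA arrays and 388 to 557 in DMSO arrays. Of 5 cholangiocyte markers 1, Sox9, was lower, with 240 to 275 in CsA arrays and 297 to 325 in DMSO arrays. Of 9 Kupffer cell markers 1, Vsig4, was lower, with 243 to 269 in CsA arrays and 257 to 340 in DMSO arrays. Leukocyte markers (4 measured, 89 to 110 in CsA and 92 to 104 in DMSO) and platelet markers (4 measured, 268 to 330 in CsA and 238 to 263 in DMSO) had 0 calls in limma. At an unadjusted p under 0.05 in limma 0 leukocyte genes changed. By the same measure 1 platelet gene, Gp9, was higher, where 17.3% of all rows were. Among the dimmest 25% of rows were 4 stellate cell, 1 cholangiocyte, 6 Kupffer cell (with Vsig4), 3 leukocyte and 2 platelet markers. Changes of such dim genes may not be measurable here. For comparison with the counts of lower markers, 9.05% of all rows were lower in limma. The part of these cell types in the results was not tested.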

How the data were processed

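The authors deposited log2 expression values; the submitters' processing notes name RMA and R 2.11.0, with array type and genome build not given in the sources used here. In all, the table held 16331 rows, 6 arrays and no missing value, and its values ran from 2.44 to 15.3. The number of arrays limits the precision. The platform's gene table named 15136 rows, and the row with the higher mean stood for each of the 3 genes with 2 rows. Sample titles gave the groups. Both were compared with limma 3.58.1 in R 4.3.3 (lmFit, eBayes, two-sided, no covariate, Benjamini-Hochberg over all rows, threshold 0.05), tested on simulated data. Differences are CsA minus DMSO with the moderated SE, and the percentage of the DMSO level is 2 to the power of the difference. Member genes, gene lists, motifs and named genes (members, list genes, the 5 most alike genes) were chosen with earlier results of these data known. The neighbours of the fibrinogen genes were added by position. Some items of the lists and motifs are not reported here.

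Replicate numbers are shared by the groups. Deviations from the group means of same-numbered arrays correlated at 0.398, 0.242 and 0.499 across rows. For differently numbered arrays the values ran from -0.496 to 0.221. The highest of these, for CsA replicate 1 with DMSO replicate 2, was close to the same-numbered value of replicate 2. Deviations within a group sum to 0, so these correlations depend on one another. The main fit, which gave the reported calls, did not pair the arrays. The numbers were used to describe pairs and as a block in an alternative fit. All CsA titles share the same prefix, while each DMSO title has its own. The titles alone thus do not settle whether the CsA arrays came from separate preparations, although the labels describe independent experiments. Shared animals between the groups are an inference. Alternatives changed the prior variance, array weights, normalization, dim-row filter, threshold and arrays included. Motifs were searched with Python 3.11.15.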

Additional observations from a re-analysis of the deposited data

How the results depend on the processing

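Fgg, Fga, Fgb, Plat, Serpinf2 and Hrg kept their direction and call under all 16 alternatives. Plg kept its direction in all 16 and its call in 13, and was lost without CsA replicate 1, without CsA replicate 2 and at an adjusted p under 0.01. With 1 array left out the count of lower member genes was 6 to 7, that of higher ones 0 to 1, the members' median difference -2.73 to -2.40 and the count of all changed rows 1738 to 3219. The omission of both arrays numbered 3, and all alternatives for the lists, were chosen after seeing the data. The count of higher member genes, 0 as reported, was 1 (Plaur) with the replicate block, with array weights, with centred arrays and without both arrays numbered 3. All rows changed numbered 4686 with the replicate block, 5190 with array weights and 1509 at an adjusted p under 0.01. Over the 7 lists the 5 higher genes were 9 with array weights, 9 without both arrays numbered 3, 3 at an adjusted p under 0.01 and 3 to 8 with 1 array left out, and the 19 lower genes were 25 with array weights, 25 with the replicate block, 22 without both arrays numbered 3, 13 at an adjusted p under 0.01 and 13 to 20 with 1 array left out. Without 1 array, Fga minus Fgb shifted by -0.71 to -0.46, Fgg minus Fga by -0.46 to -0.37 and Fgg minus Fgb by -1.17 to -0.89. Over the 3 same-numbered pairs (replicate block) the shifts were -0.61, -0.42 and -1.02, each with an exact permutation p of 0.25, the smallest that 3 pairs allow. Plau had no value when the dimmest rows were left out. The replicate block changed the counts of 6 of the 7 lists, adding Mrc1 (adjusted p = 0.0341), Thbd (0.00789), Fgl1 (0.00284), Nr3c1 (0.0274), Habp2 (0.00584) and Mcfd2 (0.0231) as lower and Canx (0.00159) and Pdia3 (0.0138) as higher. The causes of these changes were not tested.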
